A study of Mus musculus with 18 samples.

Results

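MHC class II presentation was examined through 7 genes taken by name from the 41079 genes of the expression table: the chains H2-Aa, H2-Ab1 and H2-Eb1, the invariant chain Cd74, the peptide loading factors H2-DMa and H2-DMb1, and the regulator Ciita. They were measured by poly(A) RNA sequencing in 18 B16F10 tumors, 3 in each of 6 groups. B16F10 cells, a transplantable melanoma line of C57BL/6 origin, were grown under the skin of the flank in female C57BL/6 mice. Injections into the tumor started on day 6, at a volume of about 50 mm3, were repeated every 2 days, and tumors were taken 48 h after the last one. The agent under study, PS473, is a Pistol ribozyme, a small catalytic RNA directed at the mRNA of PD-L1, and M5 is its catalytically inactive form.

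All 18 tumors carried the same cell line in the same mouse strain, and by design the groups differed in what was injected. PBS tumors received buffer alone. Free PS473 tumors received the naked ribozyme, and PS473@CPs tumors received it with cationic polymers. NKMOF-101-[Mn] tumors received the empty manganese metal-organic framework, M5@NKMOF-101-[Mn] tumors received it loaded with inactive M5, and PS473@NKMOF-101-[Mn] tumors had it loaded with PS473. These last groups are written NKMOF, M5@NKMOF and PS473@NKMOF from here on. The titles of the 3 PS473@NKMOF tumors spell the framework NKMOF-102-[Mn], whereas the description of the treatments has NKMOF-101-[Mn], which is used here. The labels number 3 tumors a group without saying that each came from its own mouse, so p-values measure the spread between these tumors. B16F10 is a single transplanted line, and the tumors are bulk tissue.

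Class II molecules carry peptides from engulfed material to CD4+ T cells. The alpha and beta chains pair in the endoplasmic reticulum around the invariant chain, which fills the groove and steers the complex to late endosomes, where the H2-DM dimer exchanges the invariant chain remnant for a peptide. Dendritic cells, macrophages and B cells express the set constitutively, many other cells, melanoma cells included, do so after exposure to interferon-gamma, and in both cases Ciita is the coactivator that the promoters depend on.

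Promoter sequence is shown because class II promoters share elements at which Ciita is recruited. The chain and loading genes moved together across tumors, and whether these elements have a part in that was not tested. The RefSeq table of promoters (GRCm38.p6) held 5 windows for 4 of the members, all on chromosome 17: H2-Aa, H2-Eb1, H2-DMb1 and 2 starts of H2-DMa. H2-Ab1, Cd74 and Ciita are named only. The 250 bases before each start were searched on both strands for the 3′ part of the X box core, ACNGATG, and the Y box core, CCAAT, which cannot overlap each other by more than single end letters. In the stretches below, read 5′ to 3′ on the gene's strand from 150 to 31 bases before the start, capitals mark these cores, and ATTGG is CCAAT on the other strand.
H2-Eb1, plus strand, chr17:34305717-34305836: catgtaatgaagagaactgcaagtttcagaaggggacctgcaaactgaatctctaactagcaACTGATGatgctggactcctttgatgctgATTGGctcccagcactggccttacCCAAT
H2-DMb1, plus strand, chr17:34153041-34153160: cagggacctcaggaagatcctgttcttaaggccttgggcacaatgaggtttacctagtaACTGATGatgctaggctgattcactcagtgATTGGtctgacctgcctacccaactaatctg
H2-Aa, minus strand, chr17:34287854-34287973: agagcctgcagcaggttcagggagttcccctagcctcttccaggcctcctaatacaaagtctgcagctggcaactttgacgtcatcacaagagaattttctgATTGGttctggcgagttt
H2-Eb1 and H2-DMb1 each held ACTGATG once, beginning 88 and 91 bases before the start, with ATTGG beginning at 59 and 61 bases. H2-Eb1 had a further CCAAT at 35 bases. H2-Aa had ATTGG at 48 bases. Its match to the X box letters lay outside the printed stretch, 232 bases before the start and on the opposite strand. That match is not taken to be the X box of H2-Aa. Only these X box letters were searched, so an X box spelled otherwise stays in lower case in the printed stretch. Of the 2 H2-DMa windows, neither held the X box letters and 1 held the Y box core. Among 32851 mouse promoter windows searched the same way, 8.31% held the X box letters, 33.8% the Y box core and 2.77% both. A match is a description of the letters, and a window without one says nothing about the factor.

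The libraries and the cells in them set the frame for these values. The deposited values are FPKM, fragment counts scaled by gene length and by library size, so levels of different genes are compared per length. The steps between low values correspond to about 17200000 to 28400000 assigned fragments per tumor, and no 2 tumors held the same values. Melanocyte genes marked every tumor, with Mlana at 524 FPKM or more, Pmel at 893 or more and Dct at 2090 or more. Transcripts of skin epithelium differed far more: the mean log2(FPKM + 1) over 10 keratinocyte genes ran from 0.167 to 6.88, with a wide range in every group. Cd274, which encodes PD-L1, the target of PS473, lay between 9.74 and 32.9 FPKM in PS473@NKMOF tumors, a range that overlapped the NKMOF tumors at 14.1 to 15.9, the M5@NKMOF tumors at 21.0 to 28.2 and PBS tumors at 12.3 to 21.5. None of its 5 comparisons of PS473@NKMOF with another group passed the test (limma, adjusted p between 0.96 and 1). In bulk tissue, fewer cells of a type and less RNA per cell cannot be told apart.

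The invariant chain was the most abundant member per length. Cd74 averaged 190.0 FPKM over the 18 tumors, ahead of H2-Aa at 75.4, H2-Ab1 at 61.2, H2-Eb1 at 42.4 and H2-DMb1 at 28.4. H2-DMa averaged 2.36 FPKM and Ciita 1.56, both over long gene models (9060 and 13417 bases) that lower a value per length. All 7 members passed the filter on low values, a mean of 1 FPKM, and none was at 0 in any tumor. The weakest value, Ciita in 1 Free PS473 tumor, still corresponded to about 134 fragments.

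H2-Aa encodes the alpha chain of I-A, the class II molecule of this mouse strain. It stood at 58.8, 56.5 and 77.6 FPKM in PBS tumors 1 to 3 and at 15.9, 20.2 and 69.4 in Free PS473 tumors. PS473@CPs tumors gave 32.8, 76.2 and 107, and NKMOF tumors 85.9, 76.6 and 58.6. M5@NKMOF tumors had 92.3, 85.8 and 128, and PS473@NKMOF tumors 68.6, 191 and 54.3. Tumor 2 of the PS473@NKMOF group was therefore far above its group mates, and Free PS473 tumors 1 and 2 were far below tumor 3.

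Cd74, the invariant chain, spread most. Its levels were 122, 149 and 196 FPKM in PBS tumors, 25.6, 53.4 and 121 in Free PS473 tumors and 78.7, 145 and 289 in PS473@CPs tumors. With the framework they were 222, 188 and 156 in NKMOF tumors, 281, 215 and 344 in M5@NKMOF tumors and 190, 518 and 123 in PS473@NKMOF tumors. Every Free PS473 tumor was below every PBS tumor, though the nearest values, 121 and 122 FPKM, were almost equal. Every M5@NKMOF tumor was above every PBS tumor. These arrangements held for 1.54% and 4.75% of all genes tested. The highest Cd74 value was 20.2 times the lowest.

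H2-Ab1, the beta chain of I-A, and H2-Eb1, the beta chain of I-E, followed H2-Aa closely. H2-Ab1 ranged from 10.9 FPKM in Free PS473 tumor 1 to 135 in PS473@NKMOF tumor 2, and H2-Eb1 from 6.56 to 106 in the same tumors. Their group means were again lowest in Free PS473, at 33.1 ± 32.7 and 20.0 ± 18.9 FPKM (SD, n = 3), against 52.7 ± 12.2 and 37.1 ± 10.9 in PBS. H2-Ea, the alpha chain that I-E would need and that C57BL/6 mice do not express, was at 0 in 14 of the 18 tumors and reached 0.0675 FPKM at most.

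H2-DMb1, which encodes the beta chain of the peptide exchange factor, had the smallest ratio of highest to lowest FPKM among the members, 3.57, although on the log2(FPKM + 1) scale its SD of 0.46 was above the 0.39 of H2-DMa. PBS tumors had 28.9, 19.7 and 25.1 FPKM, Free PS473 tumors 14.7, 15.1 and 24.9, and PS473@CPs tumors 18.6, 22.6 and 37.1. NKMOF tumors had 26.6, 29.2 and 27.8, M5@NKMOF tumors 33.6, 33.9 and 42.3, and PS473@NKMOF tumors 30.5, 52.6 and 28.5. All 9 framework tumors were at 26.6 or above, and 7 of the 9 other tumors were below that level. How many of all genes show such an arrangement was not counted. H2-DMa, its partner, ran from 1.02 to 5.13 FPKM, and its 3 M5@NKMOF values lay close together at 3.07, 3.13 and 3.19.

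Ciita, the coactivator, gave 1.18, 1.11 and 1.38 FPKM in PBS tumors, 0.497, 0.575 and 0.87 in Free PS473 tumors and 0.73, 1.07 and 2.16 in PS473@CPs tumors. In NKMOF tumors it was at 1.56, 1.41 and 2.02, in M5@NKMOF tumors at 1.66, 2.23 and 2.44, and in PS473@NKMOF tumors at 1.91, 4.43 and 0.825. PS473@NKMOF tumors thus held both the highest value of the series and the fourth lowest. Each Free PS473 tumor was below, and each NKMOF and M5@NKMOF tumor above, all PBS tumors. Over all genes tested these arrangements held for 1.54%, 4.52% and 4.75%.

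**Figure D1:**
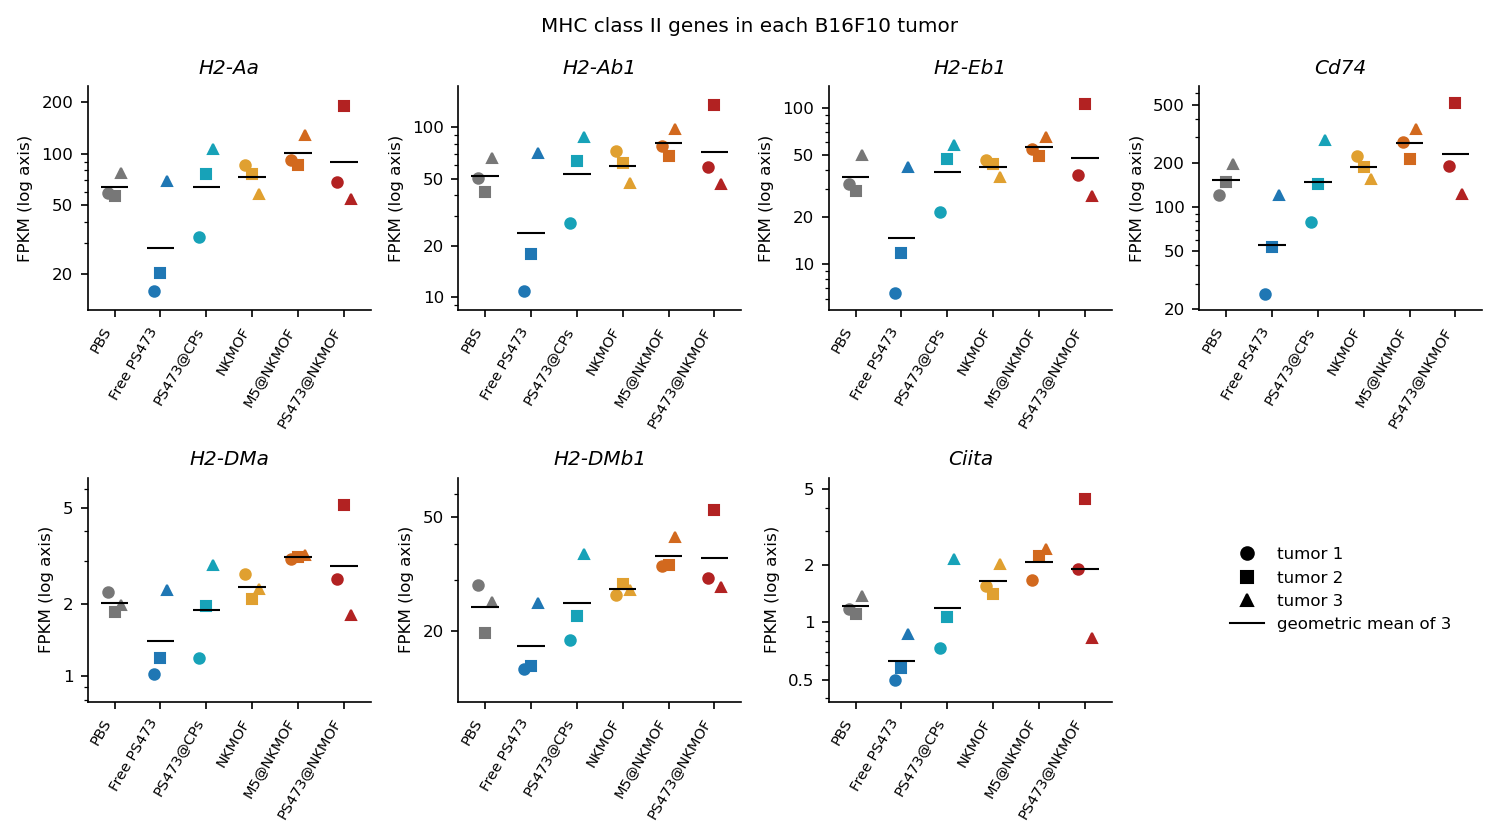
FPKM of the 7 members (log axis) in each tumor by group, with tumors 1, 2 and 3 as circle, square and triangle and the geometric mean of 3 as a bar. Free PS473 tumor 1 is the lowest and PS473@NKMOF tumor 2 the highest in all 7 panels.

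The same tumors were extreme for every member. Free PS473 tumor 1 was lowest, Free PS473 tumor 2 second lowest and PS473@CPs tumor 1 next for all 7 genes. At the other end, PS473@NKMOF tumor 2 was highest and M5@NKMOF tumor 3 second highest for all 7. Free PS473 had the lowest group mean of every member, NKMOF the fourth of 6, and M5@NKMOF and PS473@NKMOF shared the upper places. Most neighbours in that order overlapped. The exceptions were Free PS473 below PBS for Cd74 and Ciita, which held for 1.54% of all genes tested, and NKMOF below M5@NKMOF for H2-Eb1, H2-DMa and H2-DMb1, which held for 4.47%.

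Whether the active ribozyme in the framework differed from the free ribozyme was the comparison with the widest gap. All 7 members had higher levels in PS473@NKMOF tumors: the log2 fold change was 2.04 ± 0.57 (SE) for Cd74, 1.63 ± 0.54 for H2-Aa, 1.61 ± 0.56 for H2-Eb1 and 1.53 ± 0.56 for H2-Ab1. It was 0.97 ± 0.27 for H2-DMb1, 0.90 ± 0.30 for Ciita and 0.69 ± 0.26 for H2-DMa, all on log2(FPKM + 1), a scale that understates changes of weak genes. Over the 12357 genes tested, limma called 0% at an adjusted p under 0.05 and none of the members, whose adjusted p lay between 0.781 and 0.931. At an unadjusted p under 0.05 there were 615 genes, 4.98% of those tested, and all 7 members among them. Only Cd74 and H2-DMb1 had every PS473@NKMOF tumor above every Free PS473 tumor, an arrangement found for 2.34% of genes in that direction. The members move together from tumor to tumor, so 7 genes are not 7 separate results. Without PS473@NKMOF tumor 2 the members at an unadjusted p under 0.05 were 2, against 6.18% of genes. Without Free PS473 tumor 1 they were 3 (2.77% of genes), and with these 2 groups fitted alone they were 3 (2.33%). All 7 differences stayed positive each time.

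The members were also lower in Free PS473 tumors than in PBS tumors, with log2 fold changes of −1.45 ± 0.57 for Cd74, −1.21 ± 0.56 for H2-Eb1, −1.14 ± 0.54 for H2-Aa and −1.07 ± 0.56 for H2-Ab1. The other 3 lay between −0.44 and −0.30. No gene had an adjusted p under 0.05 in limma (0%, adjusted p of 1 for each member). Cd74 and H2-Eb1 were under 0.05 before adjustment, against 1.81% of genes. Groups did not overlap for Cd74 and Ciita, with Free PS473 lower, against 1.54% of genes. The count of 2 members was 0 without Free PS473 tumor 1 (0.712% of genes) or PBS tumor 3 (3.11%). It was 1 without Free PS473 tumor 2 (2.99%), PBS tumor 1 (5.84%) or PBS tumor 2 (1.39%), and 5 without Free PS473 tumor 3 (4.9%). A covariate for skin transcripts gave 0 (1.76%) and one for leukocyte transcripts gave 1 (1.97%). All 7 differences stayed negative throughout.

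Against the remaining groups the differences of PS473@NKMOF tumors were within the spread. Over PBS, members were higher by 0.38 to 0.59 on the log2 scale, over PS473@CPs by 0.30 to 0.62 and over NKMOF by 0.19 to 0.35. Relative to M5@NKMOF they were lower by between 0.012 and 0.25, although Ciita was higher by 0.040 under quantile normalization, so the active and the inactive ribozyme in the same framework gave nearly equal means. The 95% intervals remained wide: for Cd74 the last difference ran from −1.47 to 0.96, and for H2-DMb1 from −0.59 to 0.54. In these 4 comparisons limma called 0% of genes at an adjusted p under 0.05, and no member had an unadjusted p under 0.05, against 2.1% of genes for PBS, 2.29% for PS473@CPs, 2.3% for NKMOF and 0.591% for M5@NKMOF. Leaving out PS473@NKMOF tumor 2 moved the difference of H2-Aa from PBS from 0.48 to −0.058, and that of Cd74 from NKMOF from 0.30 to −0.28. Without that tumor the differences from M5@NKMOF ran from −0.84 for Cd74 to −0.29 for H2-DMb1. Without PS473@NKMOF tumor 3 they ran from 0.14 for H2-DMb1 to 0.36 for Ciita, so the near equality depended on both tumors. Leaving out PS473@NKMOF tumor 3 also gave 3 members under 0.05 before adjustment against PBS, where 1.96% of genes were. It gave 3 against PS473@CPs (5.37% of genes) and 1 against NKMOF (1.93%). Without PS473@CPs tumor 3 there were 3 against PS473@CPs (7.54%). Without PBS tumor 1 or PS473@NKMOF tumor 1 there was 1 against PBS (5.4% and 4.21%). With a leukocyte covariate the difference from M5@NKMOF turned positive for all 7 (0.14 to 0.31), and 4 members were under 0.05 against NKMOF, where 2.23% of genes were. That covariate also gave 2 members under 0.05 against PS473@CPs (2.55% of genes) and 1 against PBS (3.86%). Quantile normalization gave 1 and 2 (2.78% and 3.03%), and the skin covariate gave 1 against PBS (2.15%).

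M5@NKMOF tumors stood above PBS tumors with little scatter. Members were higher by 0.45 (H2-DMa) to 0.84 (Cd74), and 6 of the 7, all but H2-Eb1, had every M5@NKMOF tumor above every PBS tumor, which held for 4.75% of genes. The fit over all 6 groups called 0% of genes and no member, and no member had an unadjusted p under 0.05, against 1.51% of genes, and the 95% interval of H2-DMb1, the member nearest to that limit, ran from −0.0028 to 1.13. With these 2 groups fitted alone, where the spread of the other groups does not enter, all 7 members had an unadjusted p under 0.05, against 3.88% of genes, and still none passed adjustment. The count before adjustment was 1 without PBS tumor 1 (5.47% of genes) and 1 with a replicate block (1.53%). It was 3 under quantile normalization (2.39%) and 4 with a covariate for skin transcripts (3.08%). The empty framework differed less from PBS, by 0.15 to 0.29, with 0% of genes called, no member at an unadjusted p under 0.05 (1.46% of genes) and Ciita alone without overlap (4.52% of genes higher), and with a leukocyte covariate all 7 of these differences turned negative (−0.46 to −0.015). PS473@CPs differed from PBS by −0.039 to 0.099, with signs that depended on the setting, with 0% called and no member at an unadjusted p under 0.05 against 2.09% of genes.

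**Figure D2:**
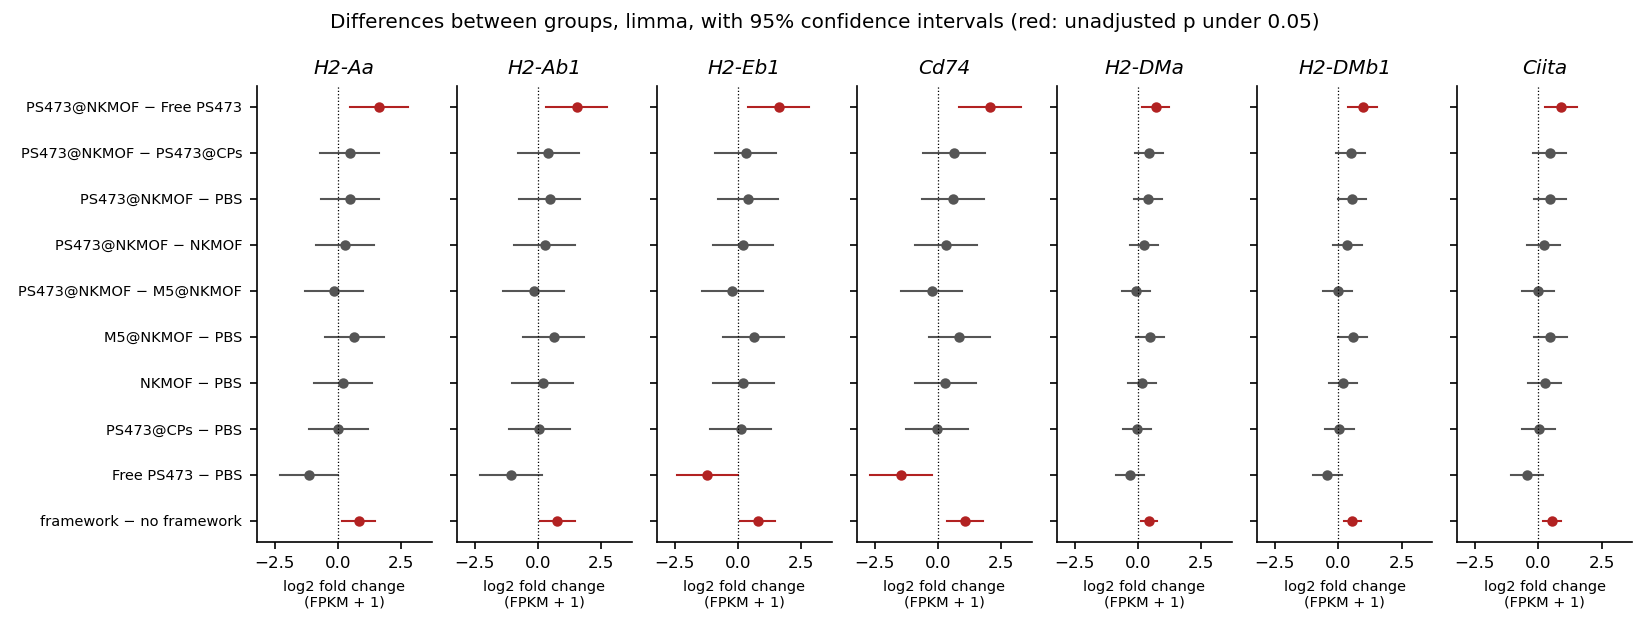
Log2 fold changes (FPKM + 1) of the 7 members in 10 comparisons, with limma's 95% confidence interval over 18 tumors. Red marks an unadjusted p under 0.05, reached by all 7 members in PS473@NKMOF minus Free PS473 and in framework minus no framework, and by H2-Eb1 and Cd74 in Free PS473 minus PBS.

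Setting the 9 tumors with framework against the 9 without averages over what the framework carried. Every member was higher with the framework: the log2 fold change was 1.07 ± 0.33 (SE) for Cd74, 0.82 ± 0.31 for H2-Aa, 0.78 ± 0.32 for H2-Eb1 and 0.77 ± 0.33 for H2-Ab1. The loading factors followed with 0.56 ± 0.15 for H2-DMb1 and 0.44 ± 0.15 for H2-DMa, and Ciita with 0.54 ± 0.17. For Cd74, framework tumors had a lowest, median and highest value of 123, 215 and 518 FPKM, the others 25.6, 122 and 289. All 9 framework tumors were above the median of the 9 others for Cd74 and H2-DMb1, and 7 to 8 of 9 for the remaining members. The share of all genes with such an arrangement was not computed, so these counts only describe the members. No gene passed adjustment in limma (0%, adjusted p = 0.9 for each member). Before adjustment all 7 members were under 0.05, against 4.56% of genes, and H2-DMb1 was 10th of 12357 by p. The median fold change over all genes tested was −0.006. This comparison shares its tumors with those above, which in turn share the PS473@NKMOF or the PBS tumors. Leaving out a single tumor kept all 7 positive and kept 5 to 7 under 0.05, against 3.15% to 8.38% of genes.

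The low Free PS473 tumors entered that average. Mean Cd74 on the log2(FPKM + 1) scale was 5.81 in Free PS473, 7.26 in PBS and 7.23 in PS473@CPs tumors, and 7.55, 8.11 and 7.85 in NKMOF, M5@NKMOF and PS473@NKMOF tumors. A contrast added after the data were seen set the framework groups against PBS and PS473@CPs only. The differences were then 0.59 ± 0.37 for Cd74, 0.43 ± 0.35 for H2-Aa and 0.41 ± 0.17 for H2-DMb1, and the other 4 lay between 0.35 and 0.40. H2-DMb1 alone was under 0.05 before adjustment, against 2.7% of genes, and no gene passed adjustment (limma, adjusted p = 0.977 for each member). Without Free PS473, then, 6 of the 7 members were no longer under 0.05, while all 7 differences stayed positive.

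A test for any difference among the 6 groups called 0% of genes at an adjusted p under 0.05 (limma F test). Cd74 and H2-DMb1 were under 0.05 before adjustment, against 1.99% of genes. This count of 2 was 0 without Free PS473 tumor 1 or tumor 2 (1.05% and 2.22% of genes). It was between 4 and 6 without Free PS473 tumor 3, PS473@CPs tumor 1 or 3, or PS473@NKMOF tumor 2 or 3 (2.58% to 3.66%). The skin covariate gave 7 (3.27%) and the leukocyte covariate 1 (3.63%). A contrast added after the data were seen set what PS473 went with inside the framework against what it went with in buffer. The difference of the 2 log2 differences was 1.76 ± 0.80 for Cd74 (limma adjusted p = 1), the sole member under 0.05 before adjustment, against 2.68% of genes.

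Leukocyte markers moved with these genes in the framework comparison. All 10 listed leukocyte markers, such as Ptprc (CD45), Itgb2 and Coro1a, were higher in framework tumors, by a median of 0.50 on the log2 scale. Of these, 3 had an unadjusted p under 0.05, against 4.56% of all genes. Their summed level was 94.8 to 117 FPKM in PBS tumors, 37.3 to 175 in Free PS473, 80.5 to 162 in PS473@CPs, 132 to 212 in NKMOF, 108 to 215 in M5@NKMOF and 74.4 to 183 in PS473@NKMOF tumors. With their mean log2 level as a covariate, the framework difference of Cd74 was 0.63, of H2-Aa 0.32, of H2-Ab1 0.27 and of H2-Eb1 0.28, and those of H2-DMb1, Ciita and H2-DMa 0.37, 0.34 and 0.22. In that fit 2 members kept an unadjusted p under 0.05, while 12.4% of all genes did. The gap of PS473@NKMOF over Free PS473 stayed larger under the same covariate, at 1.58 for Cd74 and 1.10 for H2-Aa, with 7 members under 0.05 against 8.47% of genes. With the skin score as covariate the framework difference of Cd74 was 1.20 and that of H2-Aa 0.95, with 7 members under 0.05 against 6.42% of genes.

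In other comparisons, with all tumors included, the markers and the members went opposite ways. Against NKMOF tumors, PS473@NKMOF tumors had all 10 leukocyte markers lower, with a median log2 fold change of −0.58. All 10 macrophage markers were lower too, with a median of −0.90, and 4 were under 0.05 before adjustment, against 2.3% of all genes. The 7 members had a median of 0.26. Against PS473@CPs tumors the medians were −0.16 for the leukocyte markers, again 10 of 10 lower, and 0.45 for the members, 7 of 7 higher. The direction of the members rested largely on PS473@NKMOF tumor 2. Without that tumor, 1 of the 7 members was higher than in NKMOF tumors and 4 were higher than in PS473@CPs tumors. Relative to M5@NKMOF both sets were lower throughout, with medians of −0.46 and −0.17. No listed marker passed adjustment in these comparisons, and whether markers and members differed was not tested.

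**Figure D3:**
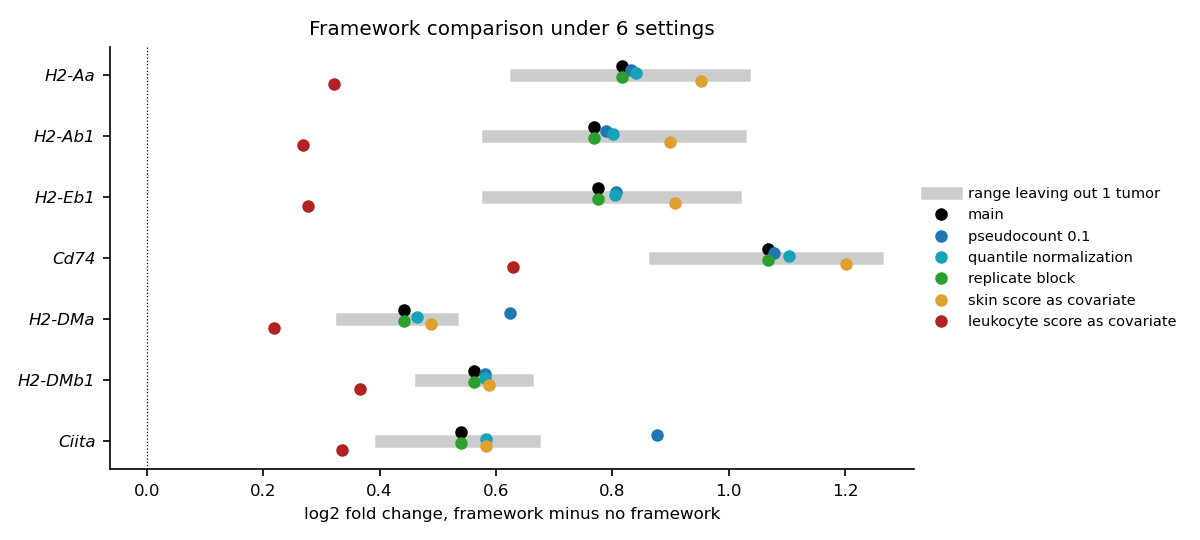
Framework minus no framework log2 fold change of each member in the fit over all 6 groups (main) and under 5 alternatives, with a grey bar for the range over fits that leave out 1 tumor. The leukocyte score brings every member to its lowest point, from 1.07 to 0.63 for Cd74, and none reaches 0.

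Within tumors the chains kept their proportions. The ratio of H2-Aa to H2-Ab1, the partners of I-A, ran from 0.983 to 1.46 with a median of 1.2, although their levels spanned 12.0-fold and 12.4-fold. H2-Eb1 over H2-Ab1 ran from 0.587 to 0.788. Cd74 over H2-Aa was lowest in Free PS473 tumor 1, at 1.62, and highest in M5@NKMOF tumor 1, at 3.04. The ratio of H2-DMb1 was less even. H2-DMb1 over H2-Aa ran from 0.275 in PS473@NKMOF tumor 2, where class II levels were highest, to 0.928 in Free PS473 tumor 1, where they were lowest.

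Put as a slope of log2 FPKM on log2 FPKM of H2-Aa over the 18 tumors, H2-Ab1 had 0.997 ± 0.037 (SE), H2-Eb1 1.04 ± 0.04 and Cd74 1.13 ± 0.06. Ciita had 0.822 ± 0.10, H2-DMa 0.621 ± 0.056 and H2-DMb1 0.505 ± 0.054. Without the highest and the lowest tumor the slopes were 0.96, 0.94 and 1.03 for the first 3 and 0.792, 0.609 and 0.513 for the others, in the same separation of chains from loading factors.

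In 18 relations computed across the 18 tumors on log2(FPKM + 1), H2-Aa correlated with every other member. Pearson's r was 0.989 for H2-Ab1, 0.987 for H2-Eb1, 0.976 for Cd74, 0.927 for H2-DMa, 0.919 for H2-DMb1 and 0.857 for Ciita, with a permutation p of 1e-05 in each case, the smallest that 100000 resamples give (adjusted 1e-05). Spearman's rho for the same pairs was 0.975, 0.979, 0.928, 0.886, 0.806 and 0.831, with permutation p of 0.00012 or less and adjusted values of 0.00027 or less. Leaving out the 2 tumors farthest from the median of H2-Aa, Free PS473 tumors 1 and 2, gave r of 0.844 to 0.981, and deviations from the group means gave 0.75 to 0.983.

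Irf1, an interferon-gamma-induced factor that acts on the inducible promoter of Ciita, was compared as well. Ciita correlated with Irf1 at r = 0.896 (rho = 0.88, both permutation p = 1e-05, adjusted 1e-05 and 3e-05), and at 0.826 without Free PS473 tumor 1 and PS473@NKMOF tumor 2. H2-Aa correlated with Irf1 at r = 0.887 (rho = 0.734, permutation p = 1e-05 and 0.00093, adjusted 1e-05 and 0.0013), and at 0.756 without the 2 farthest tumors. Ptprc, the general leukocyte gene, gave r = 0.792 with H2-Aa (rho = 0.738, permutation p = 6e-05 and 0.0008, adjusted 9e-05 and 0.0012), and 0.638 without the 2 farthest tumors (permutation p = 0.0074). Its r with Ciita was 0.745 (rho = 0.744, permutation p = 0.00038 and 0.00065, adjusted 0.00053 and 0.0011) and 0.656 without Free PS473 tumor 1 and PS473@NKMOF tumor 2. H2-K1, a class I heavy chain, gave r = 0.835 with H2-Aa (rho = 0.785, permutation p = 5e-05 and 0.00027, adjusted 8e-05 and 0.00049), and 0.65 without the 2 farthest tumors.

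Single markers of other cells were set against H2-Aa too. Csf1r, the macrophage growth factor receptor, had r = 0.508 (rho = 0.389, permutation p = 0.032 and 0.11, adjusted 0.041 and 0.14), which was 0.237 without the 2 farthest tumors (permutation p = 0.37), so this relation rested on those tumors. Flt3 of dendritic cells had r = 0.324 (rho = 0.383, permutation p = 0.18 and 0.12, adjusted 0.19 and 0.14), and 0.353 without them. Cd79a of B cells had r = 0.22 (rho = 0.214, permutation p = 0.38 and 0.4, adjusted 0.38 and 0.4), and 0.237 without them. Krt14 and Mlana, for skin and tumor cells, had r of 0.417 and 0.358 (rho = 0.31 and 0.319, all permutation p of 0.086 or more, adjusted 0.1 or more), and 0.238 and 0.213 without them. Deviations from the group means gave higher r for Csf1r, at 0.627, and for Krt14, at 0.609. They gave 0.417 for Flt3, 0.302 for Cd79a and 0.154 for Mlana. These within-group values were not tested. Flt3 reached 0.258 FPKM at most and Cd79a 1.46, so low levels limited both. Some other markers of the same lists ran closer to the chains. The measure, described without a test, was r over the 18 tumors with the mean log2 level of H2-Aa, H2-Ab1, H2-Eb1 and Cd74. Itgax had 0.894, but the other tested markers of the dendritic cell list, Batf3 and Fscn1, had 0.377 and 0.042. The macrophage genes Fcgr1, Cd68 and C1qb had 0.723, 0.68 and 0.673, where Csf1r had 0.5. Over the 10 macrophage markers that r ran from −0.012 to 0.723 with a median of 0.657, and over the 10 leukocyte markers from 0.665 to 0.794 with a median of 0.722.

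**Figure D4:**
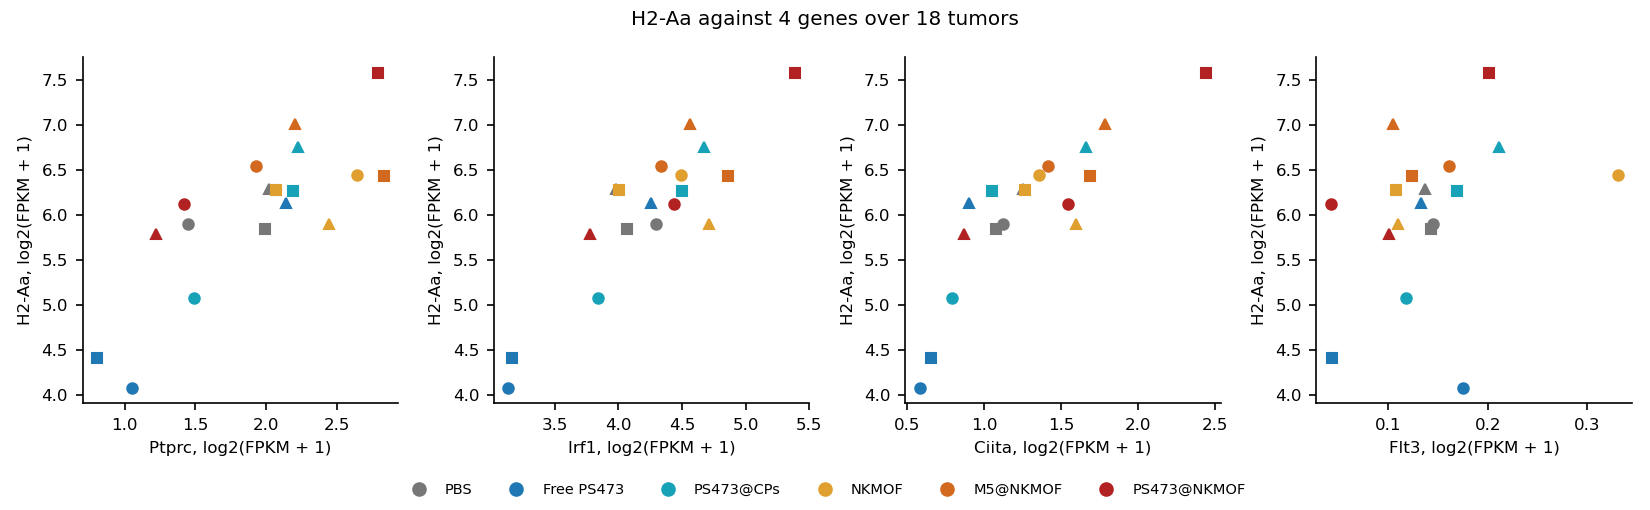
H2-Aa against Ptprc, Irf1, Ciita and Flt3, each as log2(FPKM + 1), for 18 tumors coloured by group with tumors 1, 2 and 3 as circle, square and triangle. H2-Aa climbs with Irf1 (r = 0.887), Ciita (0.857) and Ptprc (0.792), with Free PS473 tumors 1 and 2 at the lower left, and its r with Flt3 is 0.324.

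Other genes of the pathway did not move as a block. Lists of such genes were compared in framework against no framework, where no listed gene had an adjusted p under 0.05. Before adjustment 4.56% of all genes were under 0.05 in this comparison. The factors that sit on class II promoters beside Ciita, namely Rfx5, Rfxap, Rfxank, Nfya, Nfyb, Nfyc and Creb1, had a median log2 fold change of 0.018, with none of 7 under 0.05 before adjustment, and each varied 1.25-fold to 1.8-fold over all tumors. Of 9 tested genes for processing and turnover, 1 was under 0.05, the protease Ctsd at 0.16. Ctss, the cathepsin that trims the invariant chain, had 0.54 ± 0.26 (limma adjusted p = 0.9), the largest value of that list, and Ifi30, the thiol reductase of endosomes, had −0.04. From interferon-gamma to Ciita, Irf1 at 0.52 ± 0.22 was under 0.05 before adjustment, while Ifngr1, Ifngr2, Jak1 and Jak2 lay between −0.13 and 0.08.

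MHC class I presentation genes were higher as well. All 11 listed genes were higher in framework tumors, with a median of 0.47 against 0.77 for the class II members. Before adjustment 8 were under 0.05, against 4.56% of all genes. They also ran with the class II chains across tumors (r of 0.611 to 0.931), so 8 genes are not 8 separate results. Psmb8, an immunoproteasome subunit, had 0.63 ± 0.25, Tap1, a peptide transporter, 0.52 ± 0.20, and B2m, the light chain, 0.31 ± 0.13, whereas the class I coactivator Nlrc5 had 0.38 ± 0.24 and was not among these 8. The difference between the class I and class II medians was not tested.

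**Figure D5:**
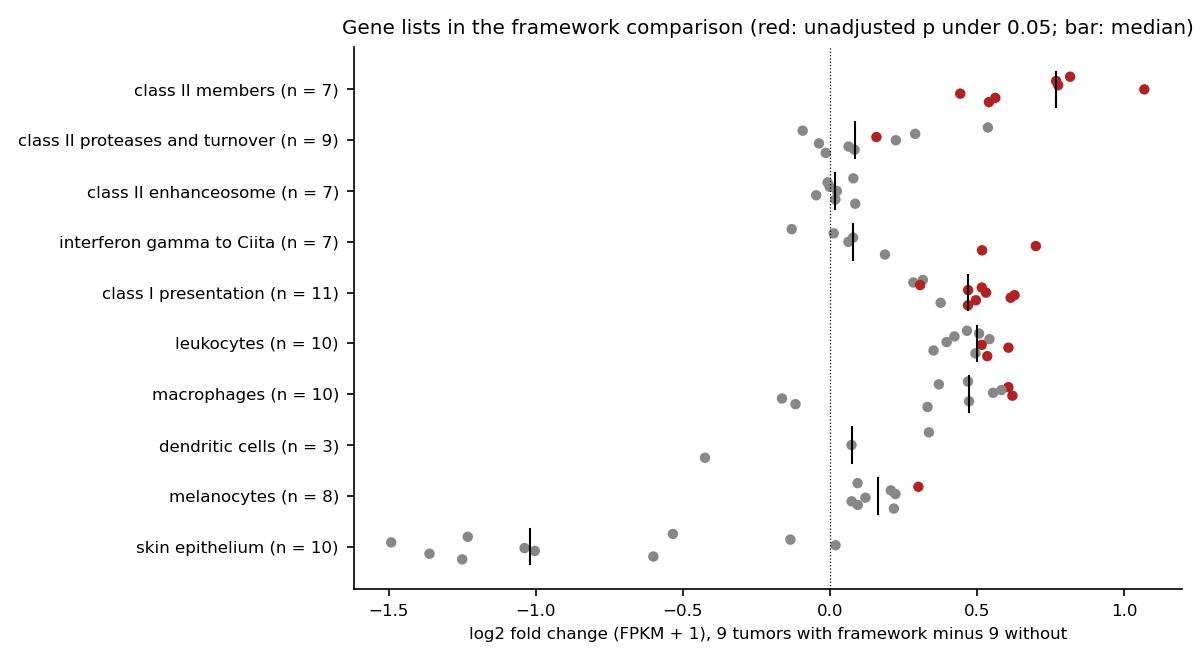
Log2 fold change (FPKM + 1) of each tested gene in 10 lists, 9 framework tumors minus 9 others, with red for an unadjusted p under 0.05 and a bar at the median. The 7 class II members and 11 class I genes lie right of 0, the enhanceosome genes lie close to 0 (median 0.018), and skin epithelium lies mostly to the left (median −1.02).

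Several class II genes stayed too low to test. H2-DMb2, H2-Eb2, H2-Oa and H2-Ob had medians of 0.533, 0.34, 0.103 and 0.099 FPKM, so with H2-Ea 0 of 5 passed the filter. Of 8 B cell markers 0 passed, and Ms4a1, which encodes CD20, had a median of 0.0102 FPKM. Of 11 dendritic cell markers 3 passed, Itgax, Batf3 and Fscn1, at log2 fold changes of 0.34, 0.07 and −0.42 with framework and none under 0.05. Cd207, the Langerhans cell lectin, was at 0 in 7 tumors and reached 1.53 FPKM in PS473@CPs tumor 2. All 10 macrophage markers passed, 8 of them positive, with a median of 0.47. Before adjustment 2 were under 0.05, Cd68 and C1qc, against 4.56% of all genes.

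The genes whose levels ran most like the chains were ranked next. Similarity was measured as r with the mean log2 level of H2-Aa, H2-Ab1, H2-Eb1 and Cd74 over the 18 tumors, for 12350 genes with a median r of −0.036. Mir5107 came first at 0.984, but its gene lies inside Cd74, and the reads of both cannot be told apart. It was followed by Zbp1 (0.934), a sensor of Z-form nucleic acid, Psmb8 (0.931), the GTPases Igtp (0.928), Gbp2 (0.925) and Iigp1 (0.92), Ccrl2 (0.92), Gbp4 (0.918), Gm12250 (0.917) and the complement protease C1ra (0.915). Several of these, the GTPases and Psmb8 included, are known interferon-induced genes. Igtp ran from 10.5 to 155 FPKM and Gbp2 from 8.64 to 119. In all, 15 genes reached 0.9. Itgax, the integrin of CD11c+ myeloid cells, was 19th at 0.894, while Ptprc was 121st at 0.783. These are descriptions over tumors that share their libraries.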

How the data were processed

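RNA of 18 tumors was enriched for poly(A), and the authors deposited 1 table of FPKM values for 41079 genes with gene lengths. The submitters' processing notes name GRCm39; the aligner, counter and annotation are not given in the sources used here. All tumor columns were mapped to labels, and 0 were left over. About 50% of low FPKM values were whole fragments (49.5% to 53.7%, tolerance 0.02), so no count model was run. The 12357 genes averaging 1 FPKM or more were tested on log2(FPKM + 1) with limma 3.58.1 in R 4.3.3, in 1 fit of 6 groups, two-sided, adjusted by Benjamini-Hochberg and tested on simulated data beforehand. Relations used 100000 two-sided permutations in Python 3.11.15. Named genes are the members, the listed genes and the 10 most like the chains. Members and lists were chosen with earlier results of these data known. Deviations of same-numbered tumors had a median r of −0.019 over 45 pairs, ranging from −0.73 to 0.72. Tumors with different numbers had a median of −0.0054 over 90 pairs, ranging from −0.69 to 0.72. Such wide ranges cannot exclude a pairing by number, and the main fit used no replicate block. Alternatives were the pseudocount, the filter, quantile normalization, groups alone, a replicate block, skin and leukocyte covariates, and leaving out each tumor. Results for some genes are not reported here.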

Additional observations from a re-analysis of the deposited data

How the results depend on the processing

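The number of members past an adjusted p of 0.05 was 0 in each of the 11 comparisons. It stayed 0 in all 176 combinations of a comparison and an alternative setting, many of which share a fit. Under the replicate block it was 0 and no direction changed. In all 36 alternatives of the relations sign and side of the threshold were kept. Of 1057 alternative log2 fold changes, 985 kept their sign and 72 did not, and none of the latter belonged to PS473@NKMOF minus Free PS473, M5@NKMOF minus PBS, Free PS473 minus PBS or framework minus no framework. With the leukocyte score as covariate, PS473@NKMOF minus M5@NKMOF became 0.30 for H2-Aa, 0.31 for H2-Ab1, 0.25 for H2-Eb1, 0.16 for Cd74, 0.14 for H2-DMa, 0.16 for H2-DMb1 and 0.18 for Ciita; NKMOF minus PBS became −0.46 for H2-Aa, −0.46 for H2-Ab1, −0.46 for H2-Eb1, −0.29 for Cd74, −0.15 for H2-DMa, −0.068 for H2-DMb1 and −0.015 for Ciita; and PS473@CPs minus PBS became −0.16 for H2-Aa, −0.14 for H2-Ab1, −0.086 for H2-Eb1, −0.030 for H2-DMb1 and −0.061 for Ciita. PS473@CPs minus PBS also became −0.023 for Ciita with a pseudocount of 0.1, −0.020 for H2-Aa and 0.019 for H2-DMa under quantile normalization, and 0.092 for Cd74 and 0.0050 for H2-DMa with the skin score, and PS473@NKMOF minus M5@NKMOF became 0.040 for Ciita under quantile normalization. The cause was not tested.

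Leaving out 1 tumor turned 47 signs. PS473@CPs minus PBS ran from −0.34 to 0.50 for H2-Aa, −0.31 to 0.52 for H2-Ab1, −0.18 to 0.51 for H2-Eb1, −0.51 to 0.42 for Cd74, −0.24 to 0.17 for H2-DMa, −0.23 to 0.25 for H2-DMb1 and −0.23 to 0.20 for Ciita. PS473@NKMOF minus M5@NKMOF ran from −0.71 to 0.19 for H2-Aa, −0.62 to 0.14 for H2-Ab1, −0.79 to 0.17 for H2-Eb1, −0.84 to 0.19 for Cd74, −0.39 to 0.17 for H2-DMa, −0.29 to 0.14 for H2-DMb1 and −0.42 to 0.36 for Ciita. PS473@NKMOF minus NKMOF ran from −0.25 to 0.65 for H2-Aa, −0.19 to 0.57 for H2-Ab1, −0.37 to 0.59 for H2-Eb1, −0.28 to 0.75 for Cd74, −0.091 to 0.48 for H2-DMa and −0.20 to 0.59 for Ciita. PS473@NKMOF minus PBS ran from −0.058 to 0.84 for H2-Aa and −0.17 to 0.79 for H2-Eb1, and PS473@NKMOF minus PS473@CPs from −0.081 to 0.82 for H2-Aa, −0.061 to 0.77 for H2-Ab1 and −0.27 to 0.69 for H2-Eb1. Depth limits the weak class II genes H2-Oa and H2-Ob most, and 3 tumors a group limit the precision of every fold change.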
